A study of Mus musculus with 9 samples.

Results

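The genes described are 10 markers of the macrophages that live in healthy tissue: Csf1r, Adgre1, Cd68, Cx3cr1, C1qa, C1qb, C1qc, Mrc1, Cd163 and Lyve1. They were chosen by name, with earlier results of these data known, and all 10 were found among the 30128 genes measured. Their messenger RNA levels were read in 9 libraries of mouse left ventricular tissue. The study asked what overexpression of USP28, a deubiquitinating enzyme, does in the diabetic heart. The 3 control libraries came from wild type mice, with no virus given in the labels. The 3 null virus libraries came from db/db mice, which lack the signalling form of the leptin receptor and become obese and diabetic, given AAV9_null, an adeno-associated virus of serotype 9. The 3 USP28 virus libraries came from db/db mice given AAV9_USP28, which carries USP28 under the cardiac troponin T promoter, a promoter active in heart muscle cells. Both db/db groups thus share genotype and virus type, and neither a db/db group without virus nor a wild type group with it was analysed here. A difference between null virus and control cannot be assigned to genotype or virus. The labels give no age and do not say that libraries of a group came from separate animals, so the p-values speak only of the spread among these libraries, which may be technical.

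Resident macrophages of the heart are long-lived cells that lie between the muscle fibres, clear dying cells and debris, and scavenge haemoglobin and other ligands. They depend on the colony stimulating factor receptor encoded by Csf1r for survival. Many of them carry the fractalkine receptor CX3CR1, scavenger receptors such as CD163 and the mannose receptor, and make the C1q proteins that start the classical complement pathway. In whole tissue these transcripts are a small part of the RNA, and fewer macrophages cannot be told apart from less RNA of a gene per macrophage. Some markers are shared: Lyve1 is also made by lymphatic endothelium, Mrc1 by some endothelial cells and Cd68 by other phagocytes.

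Levels are given as scaled RPKM, reads per kilobase of gene length at a common depth, scaled between libraries on the assumption that most genes do not differ. A gene passed the test, and is said to have risen or fallen, where limma's adjusted p over all 14104 genes tested was under 0.05. All 10 markers passed the filter for testing, which asked 3 or more libraries to reach an RPKM of 0.5. Depth, recovered from the values, was 35970332 to 56497662 reads per library. Behind a marker's value stood 44 to 1081 reads. The 95% exact Poisson interval reached 30.8% above or below for the fewest, Adgre1 in null virus replicate 1, and 6.01% for the most, Lyve1 in control replicate 1. These intervals cover counting error only and take reads as independent. They would be too narrow if both reads of a pair were counted, which was not tested.

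In wild type ventricle C1qa was the highest of the markers, followed by C1qb and Lyve1, and Adgre1 was the lowest. C1qa was at 12.0 to 13.7 scaled RPKM, C1qb at 8.33 ± 1.20 (SD, n = 3) and Lyve1 at 7.06 ± 0.543. Then came C1qc at 5.23 ± 0.899, Cd163 at 3.85 ± 0.371, Cd68 at 3.44 ± 0.820, Mrc1 at 2.70 ± 0.304 and Csf1r at 2.46 ± 0.352. Cx3cr1 at 1.49 ± 0.240 and Adgre1 at 1.04 ± 0.211 closed the order. The control values of C1qb and Lyve1 overlapped, as did those of Cd163 and Cd68, Cd68 and Mrc1, and Mrc1 and Csf1r, so these neighbours in the order were not separated. The other neighbours were. Over all 9 libraries, 82.5% of the genes tested had a lower mean level than C1qa, and 17.9% had a lower one than Adgre1. C1qa, C1qb, Lyve1, C1qc and Cd163 kept ranks 1 to 5 of the group means in all 3 groups.

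**Figure D1:**
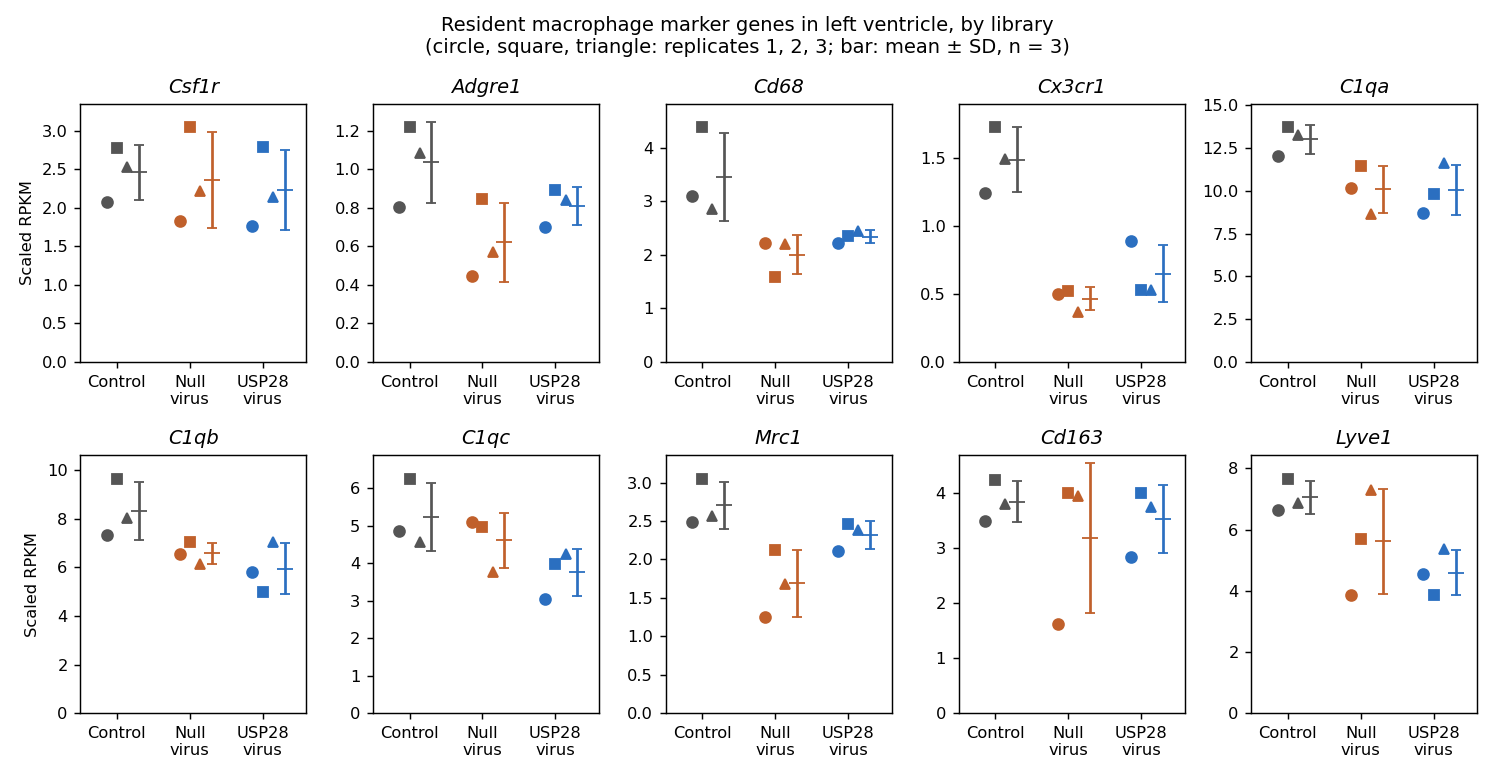
Scaled RPKM of each marker gene (vertical axes, each from 0) in the control, null virus and USP28 virus groups, with replicates 1, 2 and 3 as circle, square and triangle and the mean ± SD (n = 3) as a bar. Cx3cr1 lies between 1.24 and 1.72 in control and between 0.370 and 0.521 under null virus, while the Csf1r values of the 3 groups overlap.

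Between null virus and control, Cx3cr1, Cd68 and Mrc1 fell, and none of the 10 markers rose, where 10.1% of all genes did. Cx3cr1 had the greatest difference, to 31.3% of its control mean. Csf1r differed least, with a null virus mean at 96.1% of control. The 3 that fell of 10 stand beside 12.3% of all genes tested that fell in this comparison. All 10 log2 differences were below 0, as were 49.7% of those of all genes, and their median was -0.37 against 0.0049 for all genes. For 5 markers, Cx3cr1, Cd68, Mrc1, C1qa and C1qb, every null virus value lay below every control value, which held for 21.8% of all genes.

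Csf1r, the receptor for the macrophage growth factors CSF1 and IL-34, is the marker on which survival of these cells depends. Its level was 2.08, 2.77 and 2.53 scaled RPKM in control replicates 1 to 3, 1.83, 3.05 and 2.22 under null virus, and 1.77, 2.79 and 2.15 under USP28 virus. The groups overlapped throughout, and replicate 2 was the highest of each. The log2 difference of null virus from control was -0.08, with a 95% interval from -0.57 to 0.42 and an adjusted p of 0.825 by limma. Csf1r shares exon bases with Hmgxb3 on the opposite strand, and whether the authors counted reads by strand is not stated in the sources used.

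Adgre1 encodes F4/80, an adhesion G protein-coupled receptor used as a surface marker of mouse macrophages. It stood at 0.805, 1.22 and 1.08 scaled RPKM in control, 0.445, 0.847 and 0.569 under null virus, and 0.700, 0.891 and 0.842 under USP28 virus. The highest null virus library lay above the lowest control library. The log2 difference of null virus from control was -0.68 with an SE of 0.23, and its adjusted p of 0.0643 by limma missed the threshold. Without null virus replicate 2, the library with the highest level of that group, the adjusted p was 0.0283. In every other fit with a library left out, Adgre1 missed the threshold.

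Cx3cr1, the receptor for the membrane-bound chemokine fractalkine, was the marker with the clearest separation. Its levels were 1.24, 1.72 and 1.49 scaled RPKM in control, 0.503, 0.521 and 0.370 under null virus, and 0.891, 0.529 and 0.525 under USP28 virus. All 6 db/db libraries were below all 3 control libraries. Relative to control, Cx3cr1 fell by 1.49 on the log2 scale under null virus, with an SE of 0.22 and an adjusted p of 0.00335 by limma. Under USP28 virus it fell by 1.11, with an adjusted p of 0.0177. Its gene spans chr9:119901616-120069879 on the minus strand of GRCm38 and shares exon bases with the gene model Gm33858 on the opposite strand.

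Cd68 encodes a lysosomal glycoprotein of phagocytes. Its levels were 3.09, 4.38 and 2.86 scaled RPKM in control, 2.22, 1.59 and 2.20 under null virus, and 2.22, 2.36 and 2.45 under USP28 virus. All 6 db/db libraries were again below the 3 control libraries, of which replicate 2 was well above the others. Its level fell by 0.74 in log2 from control to null virus, with an SE of 0.18 and an adjusted p of 0.0222 by limma. Leaving out control replicate 2 or null virus replicate 2 ended the call, at adjusted p of 0.0658 and 0.0536.

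Mrc1 encodes the mannose receptor CD206, which takes up glycoproteins and is high on resident macrophages. It was at 2.49, 3.05 and 2.56 scaled RPKM in control, 1.26, 2.12 and 1.68 under null virus, and 2.11, 2.46 and 2.39 under USP28 virus. Null virus replicate 1 was the lowest library of all, and control replicate 2 the highest. It fell by 0.67 in log2 from control to null virus, with an SE of 0.18 and an adjusted p of 0.0292 by limma. The call was lost without control replicate 1, 2 or 3 (adjusted p of 0.0544, 0.105 and 0.0736), without null virus replicate 3 (0.0524), and with library totals as the only scaling (0.0726).

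The other scavenger markers are Cd163, the receptor for haptoglobin bound to haemoglobin, and Lyve1, a hyaluronan receptor found on macrophages beside vessels. Cd163 was at 3.50, 4.24 and 3.81 scaled RPKM in control, 1.62, 4.01 and 3.95 under null virus, and 2.84, 4.01 and 3.75 under USP28 virus. Lyve1 was at 6.63, 7.67 and 6.88 in control, 3.86, 5.71 and 7.29 under null virus, and 4.56, 3.88 and 5.37 under USP28 virus. In both genes null virus replicate 1 was the lowest of its group, and the null virus group overlapped control. The log2 differences of null virus from control were -0.36 for Cd163 and -0.37 for Lyve1, with adjusted p of 0.425 and 0.244 by limma. That of Cd163 rested on replicate 1 and was 0.05 without it, as that of Csf1r was 0.09.

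C1qa, C1qb and C1qc encode the A, B and C chains that assemble into C1q, and macrophages are the chief source of all of them in most tissues. The genes are neighbours on the minus strand of chromosome 4, at chr4:136895917-136898803 for C1qa, chr4:136880129-136886187 for C1qb and chr4:136889804-136893065 for C1qc on GRCm38. C1qa was at 12.0, 13.7 and 13.2 scaled RPKM in control, 10.2, 11.4 and 8.66 under null virus, and 8.71, 9.82 and 11.6 under USP28 virus. All 6 db/db values lay below the control values.

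C1qb followed the same order of groups, at 7.32, 9.65 and 8.01 scaled RPKM in control, 6.55, 7.02 and 6.15 under null virus, and 5.79, 4.98 and 7.05 under USP28 virus. C1qc was at 4.86, 6.25 and 4.57 in control, 5.10, 4.97 and 3.75 under null virus, and 3.06, 3.98 and 4.25 under USP28 virus, and its null virus group overlapped control. None of the chains passed against control in either db/db group. The log2 differences of null virus from control were -0.37 for C1qa, -0.33 for C1qb and -0.18 for C1qc, with adjusted p of 0.0835, 0.138 and 0.499 by limma. The ratio of C1qa to C1qb within a library was 1.57 ± 0.131 in control, 1.53 ± 0.111 under null virus and 1.71 ± 0.240 under USP28 virus (SD, n = 3), and the 3 groups overlapped.

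**Figure D2:**
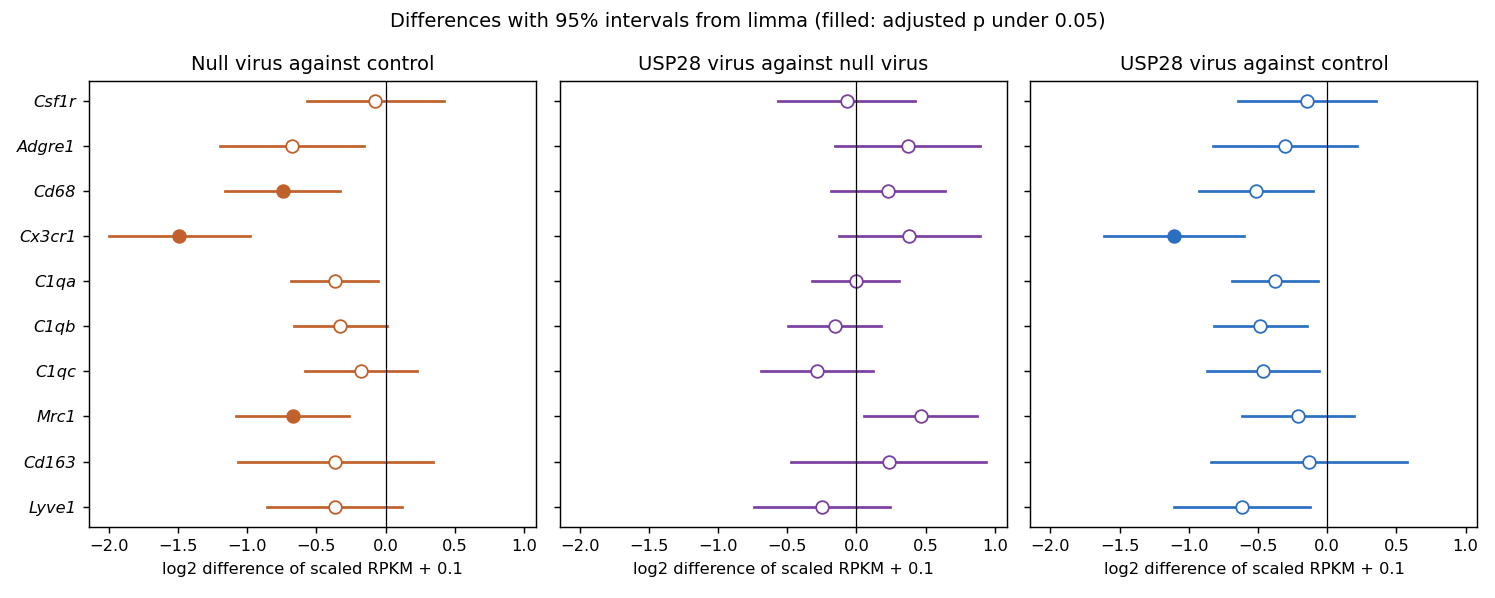
Log2 difference of scaled RPKM + 0.1 for each marker gene (horizontal axis) with its 95% interval from limma, in the 3 comparisons; filled points passed at an adjusted p under 0.05. Cx3cr1, Cd68 and Mrc1 are filled for null virus against control, none for USP28 virus against null virus, and Cx3cr1 for USP28 virus against control.

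The USP28 virus and null virus groups differ by label in the USP28 gene, and none of the 10 markers passed between them. In this comparison 0.588% of all genes passed, and at an unadjusted p under 0.05 the count was 1 of 10 markers beside 16.7% of all genes. That marker was Mrc1, with a log2 difference of 0.46, a 95% interval from 0.06 to 0.87 and an adjusted p of 0.245 by limma. Its USP28 virus mean was 2.32 ± 0.185 scaled RPKM against 1.69 ± 0.434 under null virus (SD, n = 3), and the groups overlapped narrowly, at 2.11 against 2.12. Cx3cr1 was the only marker whose groups did not overlap, with every USP28 virus value above every null virus value, as in 12.2% of all genes. Its log2 difference was 0.38 with an interval from -0.13 to 0.89, and the lowest USP28 virus value of 0.525 stood next to the highest null virus value of 0.521. Counting intervals of those values, at 18.7% and 20.8%, exceed that gap.

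Of the other markers, Adgre1, Cd68 and Cd163 had log2 differences of 0.37, 0.23 and 0.23 between USP28 and null virus. C1qc, Lyve1, C1qb, Csf1r and C1qa had differences of -0.29, -0.25, -0.16, -0.07 and -0.01. Adjusted p by limma ran from 0.432 to 0.987 over these 8 genes. The widest 95% interval was that of Cd163, from -0.47 to 0.94, and the narrowest that of C1qa, from -0.32 to 0.30, so moderate differences in either direction were not detectable here. The median over the 10 markers was 0.11, against 0.0128 for all genes.

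Against control, the USP28 virus group had 1 marker that fell, Cx3cr1, where 6.18% of all genes fell. The call was lost without control replicate 2 or 3 or USP28 virus replicate 2 or 3, at adjusted p of 0.0708, 0.0709, 0.0558 and 0.0603 by limma. For 7 markers, Cx3cr1, Cd68, Mrc1, C1qa, C1qb, C1qc and Lyve1, all USP28 virus values lay below all control values, as in 23.4% of all genes. The log2 differences were -0.62 for Lyve1, -0.51 for Cd68, -0.48 for C1qb, -0.47 for C1qc, -0.38 for C1qa and -0.21 for Mrc1. Their adjusted p were 0.0976, 0.101, 0.0674, 0.125, 0.11 and 0.481 by limma. Without null virus replicate 1 in the fit, C1qb and Lyve1 passed too, at 0.0353 and 0.0105. Both comparisons with control share the same 3 control libraries.

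Levels relative to Csf1r in the same library set the markers against each other without any scaling between libraries. For Cx3cr1 the ratio of RPKM values was 0.599, 0.622 and 0.589 in control, 0.275, 0.171 and 0.167 under null virus, and 0.504, 0.190 and 0.245 under USP28 virus. The control ratios lay close together and above all others, and USP28 virus replicate 1 stood apart from its group. For Mrc1 the ratio was 1.10 ± 0.0933 in control, 0.715 ± 0.0385 under null virus and 1.06 ± 0.162 under USP28 virus (SD, n = 3). For Adgre1 it was 0.419 ± 0.0274, 0.259 ± 0.0173 and 0.369 ± 0.0435.

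These 3 were the genes, of 9 compared with Csf1r, whose null virus ratios all lay below the control ratios, as in 10.4% of all genes. For Mrc1 and Adgre1 the USP28 virus ratios all lay above the null virus ratios, which held for 5.09% of all genes. Under USP28 virus against control, the ratios of Cx3cr1 and Lyve1 lay below without overlap, beside 6.62% of all genes. The ratios of Cd68, C1qa, C1qb, C1qc and Cd163 to Csf1r overlapped between groups in all 3 comparisons. For Cd68, C1qa, C1qb and C1qc, the overlap of null virus with control came from null virus replicate 1 alone, at 1.21, 5.56, 3.58 and 2.79. Their ratios in null virus replicates 2 and 3 lay below every control ratio. Replicate 1 read short and long genes unequally, as given below, and the part of this in the ratios was not tested. Within a library Cx3cr1, Mrc1 and Adgre1 and Csf1r thus differed by unequal amounts between null virus and control, and a ratio does not say which of them moved.

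**Figure D3:**
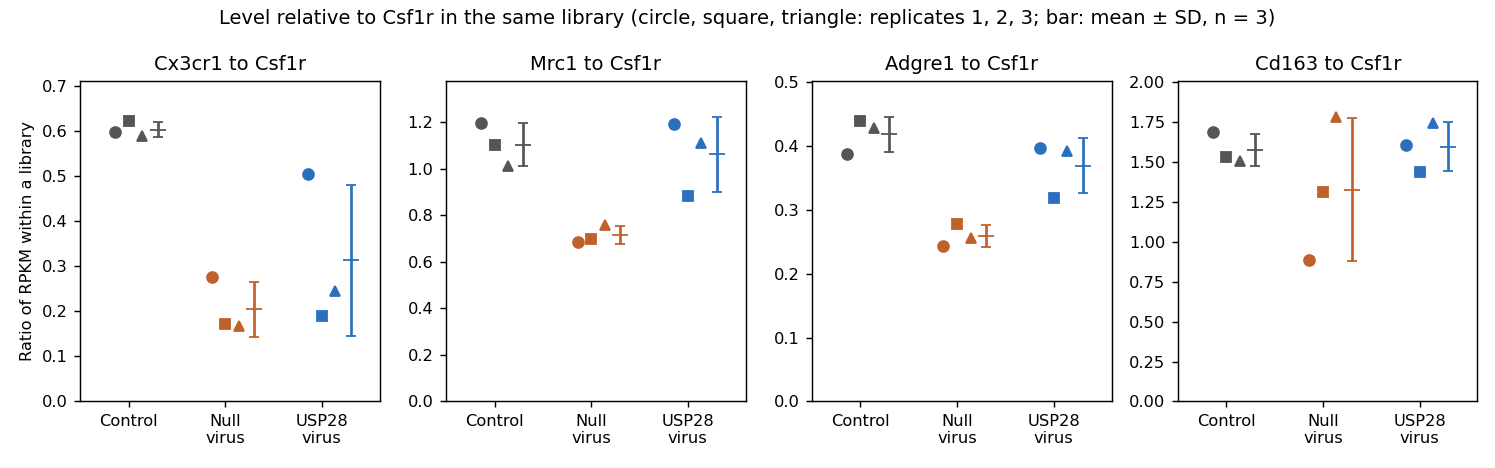
Ratio of the RPKM of Cx3cr1, Mrc1, Adgre1 and Cd163 to that of Csf1r in the same library (vertical axes, each from 0), with replicates as circle, square and triangle and the mean ± SD (n = 3) as a bar. The Cx3cr1 ratio is 0.589 to 0.622 in control and 0.167 to 0.275 under null virus, and the Cd163 ratios overlap.

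The libraries were not alike in ways that touch these values. Control replicate 2 had the highest level of all 9 libraries in 9 of the 10 markers, Csf1r being the exception. It also had the highest summed level of 5 red blood cell genes, 526 scaled RPKM, where the control group ranged from 138 to 526, null virus from 128 to 196 and USP28 virus from 108 to 223. The part of blood in the marker levels was not tested. Replicate 1 was the lowest of its group in 8 markers in control, in 5 under null virus (Csf1r, Mrc1, Cd163, Adgre1 and Lyve1) and in 7 under USP28 virus. Null virus replicate 1 stood apart in the genes as a whole. Its mean departure from the group mean was 0.334 on the log2 scale, where the other libraries had 0.144 to 0.214.

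That library also read short and long genes unequally. Relative to the mean of the 9 libraries, genes under 1500 bases had a median log2 departure of 0.31 and genes over 4500 bases one of -0.22 in null virus replicate 1. The difference between them was 0.53 there and lay between -0.14 and 0.0151 in the other 8 libraries. Among the markers, C1qa, C1qb and Cd68 have lengths of 1040, 1088 and 1257 bases, and Csf1r, Cd163 and Mrc1 of 4885, 5461 and 6371. With the trend over gene length removed from every library, 4 markers passed between null virus and control, Cx3cr1, Cd68, Mrc1 and C1qa, the last at an adjusted p of 0.0414 by limma. Without the library, 3 passed, Cx3cr1, Cd68 and Mrc1.

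**Figure D4:**
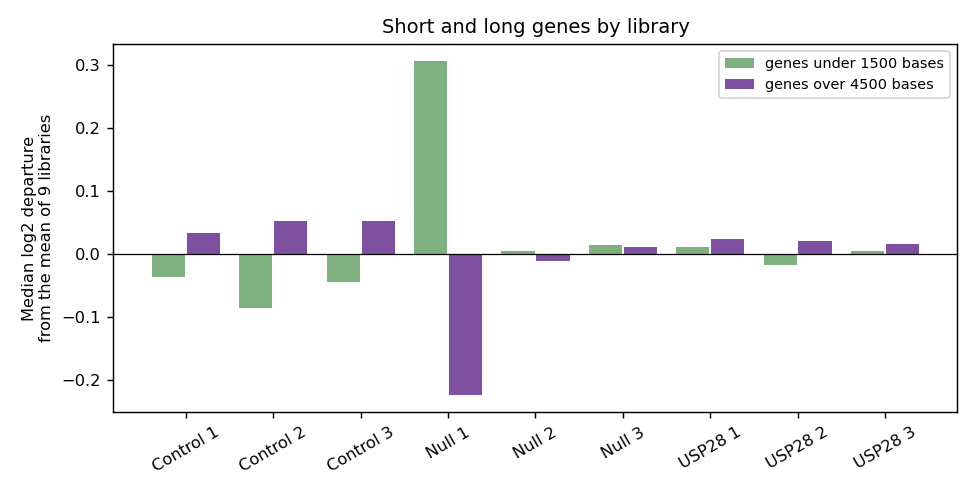
Median log2 departure from the mean of the 9 libraries (vertical axis) of 3418 tested genes under 1500 bases and 4879 genes over 4500 bases, for each library. Null virus replicate 1 reaches 0.31 for short and -0.22 for long genes, and no other library departs as far.

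Promoters are shown for the 3 markers that fell between null virus and control. Sequences run from 250 bases before to 50 bases after the RefSeq start of the gene on GRCm38.p6, 5′ to 3′ on the gene's strand, at chr9:120068247-120068546 (minus) for Cx3cr1, chr11:69666121-69666420 (minus) for Cd68 and chr2:14229164-14229463 (plus) for Mrc1. Capitals mark GAGGAA or its reverse complement TTCCTC, the core bound by PU.1, a transcription factor that macrophages need.
Cx3cr1: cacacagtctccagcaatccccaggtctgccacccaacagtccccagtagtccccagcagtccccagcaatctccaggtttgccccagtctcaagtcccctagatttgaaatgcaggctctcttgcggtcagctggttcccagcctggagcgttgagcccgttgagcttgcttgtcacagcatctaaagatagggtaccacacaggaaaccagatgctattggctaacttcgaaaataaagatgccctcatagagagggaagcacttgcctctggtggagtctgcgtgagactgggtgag
Cd68: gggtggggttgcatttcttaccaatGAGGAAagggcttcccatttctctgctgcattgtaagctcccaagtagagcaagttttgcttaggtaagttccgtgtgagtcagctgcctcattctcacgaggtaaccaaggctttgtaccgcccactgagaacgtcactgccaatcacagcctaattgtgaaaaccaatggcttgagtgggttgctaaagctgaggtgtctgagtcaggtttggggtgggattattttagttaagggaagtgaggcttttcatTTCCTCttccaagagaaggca
Mrc1: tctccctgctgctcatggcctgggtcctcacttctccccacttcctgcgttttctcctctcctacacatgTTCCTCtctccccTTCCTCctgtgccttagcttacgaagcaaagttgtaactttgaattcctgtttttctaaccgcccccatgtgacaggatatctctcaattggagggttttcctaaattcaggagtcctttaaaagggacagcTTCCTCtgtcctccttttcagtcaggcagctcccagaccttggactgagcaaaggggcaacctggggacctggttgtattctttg
The motif was found 3 times for Mrc1, 2 times for Cd68 and not in this window of Cx3cr1. RefSeq promoters were read for 6 of the 10 markers, and those of Csf1r, C1qa, Adgre1 and Lyve1 were not read. Among the 6, C1qb and C1qc held 1 match each and Cd163 none. The 4 of 6 with a match stand beside 28.3% of 32851 promoters of the same length. A match is a description of the letters and not a site. Spi1, which encodes PU.1, was at 1.20 ± 0.167 scaled RPKM in control, 0.983 ± 0.243 under null virus and 0.967 ± 0.107 under USP28 virus (SD, n = 3), and did not pass in any comparison.

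Other genes of resident macrophages were described from a list of 14, of which 11 passed the filter. Between null virus and control 5 of them fell, Timd4, Folr2, Cbr2, Pf4 and Fcrls, and 1 rose, Mertk. Of all genes tested, 12.3% fell and 10.1% rose in this comparison. The median log2 difference of the 11 was -0.76, against 0.0049 for all genes. Timd4, a receptor for phosphatidylserine on dying cells that marks self-renewing resident macrophages, was at 0.684, 0.737 and 0.536 scaled RPKM in control, 0.0604, 0.138 and 0.166 under null virus, and 0.320, 0.721 and 0.413 under USP28 virus. Every null virus value was below every value of the other groups, on as few as 4 reads. Timd4 reached the filter only through the control libraries and USP28 virus replicate 2, the groups where it was higher. Its differences are therefore given as values alone, though Timd4 stays in the count of 5 that fell. The log2 difference was -1.79 under null virus against control and 1.37 under USP28 virus against null virus.

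Folr2, a folate receptor of tissue macrophages, showed the same order of groups. Its levels were 1.85, 2.82 and 2.48 scaled RPKM in control, 0.935, 1.10 and 0.990 under null virus, and 1.68, 1.90 and 1.68 under USP28 virus. Folr2 fell by 1.15 in log2 from control to null virus, at an adjusted p of 0.00232 by limma. USP28 virus against null virus gave 0.74, with no overlap, at an adjusted p of 0.0792. None of the 11 genes passed in that comparison. Without null virus replicate 1, Folr2 rose and Fcna, a ficolin, fell there.

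Cbr2, a carbonyl reductase, and Fcrls, an Fc receptor-like protein, fell by 1.22 and 1.59 between control and null virus. Mertk, a receptor for the clearance of dying cells, went the other way. So did Clec10a, by 0.96, which did not pass, at an adjusted p of 0.0679 by limma. Mertk was at 1.75 ± 0.239 scaled RPKM in control, 2.55 ± 0.369 under null virus and 2.86 ± 0.135 under USP28 virus (SD, n = 3). Its log2 differences from control were 0.52 and 0.69, with adjusted p of 0.0307 and 0.0183 by limma. When each of the 9 libraries was left out in turn, Folr2, Cbr2 and Fcrls passed between null virus and control all 9 times. Pf4, a platelet chemokine also made by these macrophages, passed 3 times and Mertk 2 times. Without null virus replicate 1 the counts, Timd4 included, were again 5 lower and 1 higher. Without control replicate 2 they were 4 lower and 0 higher. Mertk was the only one of the 11 to pass between USP28 virus and control, and did so in 4 of the 9 fits with a library left out.

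**Figure D5:**
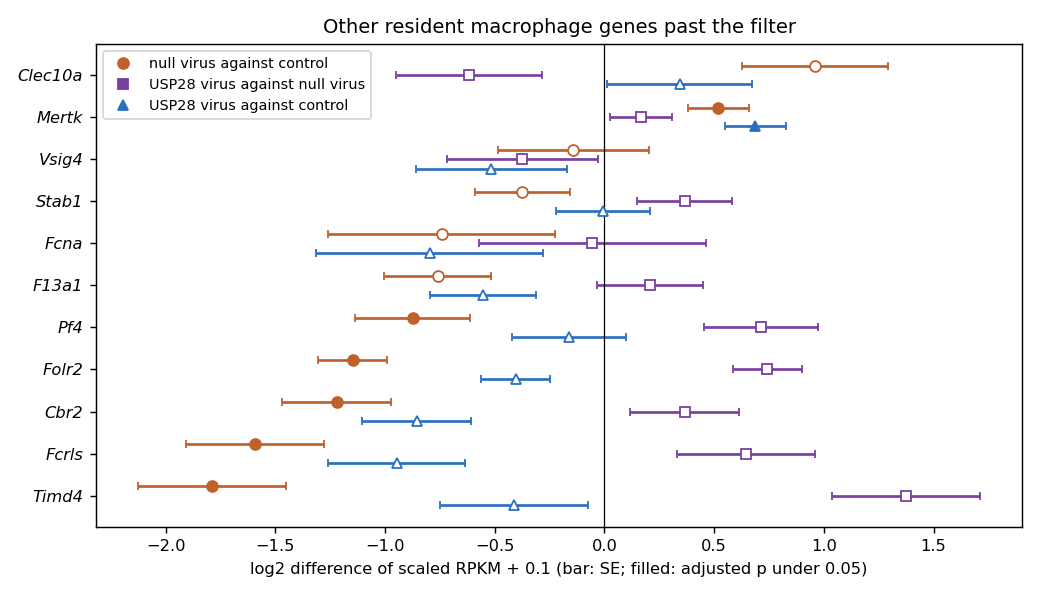
Log2 difference of scaled RPKM + 0.1 (horizontal axis) with its SE for the 11 other resident macrophage genes past the filter, in the 3 comparisons; filled symbols passed at an adjusted p under 0.05. Timd4 lies at -1.79 for null virus against control and at 1.37 for USP28 virus against null virus, and Mertk is above 0 in all 3. Timd4 reached the filter only through the groups where it was higher, so its filled symbol is not read as a test.

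Among the ligands of the markers' receptors, Csf1, the growth factor that binds the receptor encoded by Csf1r, fell under null virus. It was at 3.72, 4.23 and 4.38 scaled RPKM in control, 2.30, 1.99 and 2.0 under null virus, and 2.29, 3.03 and 2.10 under USP28 virus. All 6 db/db libraries were below the control libraries. Csf1 fell by 0.94 on the log2 scale under null virus and by 0.72 under USP28 virus relative to control, at adjusted p of 0.00385 and 0.0179 by limma. The first call held when each of the 9 libraries was left out in turn, the second in 5 of the 9 fits.

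Cx3cl1, which encodes fractalkine, was at 0.768 ± 0.121 scaled RPKM in control, 0.563 ± 0.126 under null virus and 0.693 ± 0.202 under USP28 virus (SD, n = 3), and did not pass. Il34, the other ligand for the receptor that Csf1r encodes, was below the filter in every group at 0.159 to 0.541. Of the 7 ligand genes tested, Csf1 was the only one to pass between null virus and control, and none passed between USP28 and null virus. Tgfb1, which encodes a growth factor that shapes resident macrophages, rose by 0.41 between control and USP28 virus, at an adjusted p of 0.0366 by limma, and passed in 1 of the 9 fits with a library left out.

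Of 8 transcription factors tested, Klf4, Cebpb and Nr1h3 rose and Maf fell between control and null virus. Klf4 was at 9.47 ± 1.13 scaled RPKM in control, 24.5 ± 4.02 under null virus and 22.1 ± 3.57 under USP28 virus (SD, n = 3), and it is also made by endothelial and other cells. Its log2 differences from control of 1.36 and 1.21 passed at adjusted p of 0.00136 and 0.00454 by limma. Cebpb, a factor of myeloid cells and many others, had differences of 1.01 and 0.89 and passed in both, in 9 and 5 of the 9 fits with a library left out. Nr1h3, the lipid-sensing receptor LXR alpha, rose by 0.56 under null virus. Maf, a factor of resident macrophages, fell by 0.57 under null virus, at an adjusted p of 0.0411 by limma, and passed in 2 of the 9 fits with a library left out. None passed between USP28 and null virus.

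Of 12 general myeloid genes tested, Aif1 and Itgam fell under null virus. Itgam, the integrin chain CD11b, was at 2.34 ± 0.0948 scaled RPKM in control, 1.16 ± 0.325 under null virus and 1.17 ± 0.0565 under USP28 virus (SD, n = 3). It passed against control in both db/db groups, at adjusted p of 0.00824 and 0.0171 by limma, and with a library left out in 9 and 4 of the 9 fits. Aif1, which encodes IBA1, fell by 1.13 under null virus and passed in 1 of the 9 fits with a library left out. Ptprc, the pan-leukocyte gene for CD45, had a log2 difference of -0.29 between null virus and control at an adjusted p of 0.373. None of the 12 passed between USP28 and null virus.

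Genes that work with the markers' products were taken from further lists. Of 10 complement genes beyond C1q that were tested, none passed between null virus and control or between USP28 and null virus, and C1s1, a protease of the C1 complex, rose by 0.42 between control and USP28 virus. Of 9 genes of haem and iron handling, Hmox1, Fth1 and Ftl1 rose under null virus and none passed in the other comparisons. Without null virus replicate 1, Slc40a1, Fth1 and Ftl1 were lower under USP28 virus than under null virus, and Hmox1 and Fth1 were higher under USP28 virus than in control. Hmox1, which breaks down haem, was at 1.75 ± 0.269 scaled RPKM in control, 3.40 ± 0.954 under null virus and 2.46 ± 0.218 under USP28 virus (SD, n = 3). Of 3 hyaluronan genes and 5 inflammatory and lipid-associated genes tested, only Fabp5, a fatty acid binding protein, passed, higher under null virus by 0.67.

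Markers of other cell types stood beside these values as follows. Of the 10 monocyte genes, 2 passed the filter, Vcan and Ace, both also made by other heart cells. Vcan reached the filter only in the 3 control libraries, at 0.548 to 0.632 scaled RPKM against 0.190 to 0.313 in the others, so its difference is given as values alone. Ace fell by 1.06 on the log2 scale under null virus. The monocyte receptor gene Ccr2 was at 0.107 to 0.355 scaled RPKM in all libraries. The summed monocyte list was 6.68 to 8.09 in control, 3.15 to 4.41 under null virus and 5.35 to 6.40 under USP28 virus, and most of it was Ace, at 5.67 ± 0.445, 2.71 ± 0.534 and 4.63 ± 0.496 (SD, n = 3). Spn, another monocyte gene, was at 0.329 ± 0.0681, 0.328 ± 0.108 and 0.365 ± 0.0756 in the same order of groups, which overlapped as those of Ccr2 did. Of the neutrophil genes S100a9 alone passed the filter, and it fell by 2.40 under null virus and by 3.52 under USP28 virus relative to control. The part of these cells in the marker levels was not tested.

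Of the lymphatic endothelial genes, 1 of 5 tested passed, Prox1, which fell by 1.21 and 1.03 relative to control under null virus and USP28 virus. Prox1 is also made by heart muscle, and the part of lymphatic vessels in the Lyve1 level was not tested. No lymphocyte, mast cell or adipocyte gene passed the filter, and no red blood cell gene passed the test. Of 2 dendritic cell genes tested, Clec9a rose by 0.77 under null virus. Of 8 blood endothelial genes, Cldn5 rose by 1.44 under null virus and Tie1 by 0.60 under USP28 virus, both relative to control.

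Of 7 fibroblast genes, Lum, Col1a1, Postn and Dpt fell under null virus, Lum rose by 1.01 between null virus and USP28 virus, and Col1a1 was lower under USP28 virus than in control. The remaining fibroblast genes, Pdgfra, Dcn and Tcf21, had log2 differences of null virus from control of 0.11, 0.31 and 0.67, and none passed. The fibroblast list summed to 94.0 to 111 scaled RPKM in control and 96.0 to 108 under null virus. Of 8 heart muscle genes, Actc1 and Ttn fell under null virus and Actc1 was lower under USP28 virus, and the muscle list summed to 22966 to 33921 scaled RPKM over all libraries. The remaining muscle genes went in both directions between control and null virus, and none passed. Tnni3, Tnnt2 and Myl2 had log2 differences of 0.43, 0.37 and 0.15, and Ryr2, Myh6 and Pln of -1.08, -0.39 and -0.14. Of 2 cell cycle genes tested, Top2a reached the filter only through control replicate 2 and the USP28 virus libraries, so its difference is given as values alone. It was at 0.518 ± 0.189 scaled RPKM in control, 0.214 ± 0.0565 under null virus and 0.735 ± 0.171 under USP28 virus (SD, n = 3). Among the genes named from these lists, Clec9a, Fabp5 and Dpt passed in 1 or 2 of the 9 fits with a library left out. Nr1h3 passed in 3, C1s1 in 3 and the rise of Lum in 3. Fth1, Ttn and Tie1 passed in 6 of the 9 fits.

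Usp28 itself, with native and vector transcripts not told apart, was at 12.5, 13.3 and 13.8 scaled RPKM in control, 9.93, 7.52 and 7.83 under null virus, and 9.94, 11.3 and 11.3 under USP28 virus. The USP28 virus libraries were below control. They did not overlap the null virus libraries, but the closest values, 9.94 and 9.93, were not told apart by their counting intervals of 9.60 to 10.3 and 9.47 to 10.4.

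The markers differed in how close each lay to the mean profile of the others. The measure was the root-mean-square difference of centred log2 levels over the 9 libraries. C1qa lay closest to the mean of the other markers, at 0.155, and Cx3cr1 farthest, at 0.533. Outside the markers, genes were measured against the mean of all 10. The 8 nearest were Senp2, Med1, Whsc1, Polr3b, Nek1, Cmtr1, Slk and Pde12, at 0.0691 to 0.0892. None of them is on a list of macrophage genes used here, and the libraries share depth and gene length effects that enter this measure.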

How the data were processed

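Polyadenylated RNA was made into directional libraries and sequenced as 150-base pairs on an Illumina NovaSeq instrument, per the labels' protocols. HISAT2 and DESeq2 are named, with no role, per the submitters' processing notes, which give the human build GRCh38. The deposited table is mouse, with 25482 of 30128 gene spans identical to GENCODE M21 on GRCm38. Neither the read counter nor its strandedness is given in the sources used here. The deposited values are RPKM. RPKM times gene length gave whole reads within 0.01 for 99.9839% of values above 0 and for all values of the 10 markers, and from these the depth.

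RPKM values were scaled by a trimmed mean of M values (30% and 5% trimmed), and limma 3.58.1 in R 4.3.3 (trended, robust prior) was run on log2(scaled RPKM + 0.1) with all 9 libraries in 1 fit and Benjamini-Hochberg adjustment. Differences on this scale understate the change of low genes. The method was tested on simulated data. The 10 markers and the 20 other lists were chosen with earlier results of these data known. From those lists, genes past the threshold were named, at most 4 a list and comparison. For the other resident macrophage genes all 6 were named. Il34, Cx3cl1, Spi1, Ptprc, Fcna, Ccr2, Spn and Clec10a were added after their values were seen. Same-numbered libraries did not pair (correlations of deviations -0.029 to 0.06). No libraries of a group were identical. Alternatives were other scalings, pseudocounts, filters, fits and left-out libraries, and the removal of a gene length trend, chosen after seeing the data. Figures used matplotlib 3.10.9 (Python 3.11.15, pandas 2.3.3).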

Additional observations from a re-analysis of the deposited data

How the results depend on the processing

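Cx3cr1 fell between control and null virus under all 20 alternatives run. Cd68 missed the threshold without a filter on low values and with the 2 groups fitted alone (adjusted p of 0.05 and 0.0627 by limma), as did Mrc1 (0.0646 and 0.0763), which left 1 marker in each. With libraries left out, 1 to 3 markers passed in this comparison, and 1446 to 4469 genes. Without a filter 2084 genes passed, and with 2 groups alone 1674.

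Between USP28 and null virus 0 markers passed under all alternatives. The count of genes was 31 with library totals alone (27 higher, 4 lower), 10 without a filter, 187 with limma voom on the recovered reads, 0 with 2 groups alone (1759 at an unadjusted p under 0.05), and 0 to 947 with libraries left out, 947 being without null virus replicate 1. Among the listed genes that passed without that library were Folr2, Aif1, Gas6 and Ace, higher, and Fcna, C4b, Slc40a1, Fth1 and Ftl1, lower. The labels' replicate numbers did not pair the libraries, and each library correlated best with its own number in 8 of 18 cases. With the replicate number as a block 0 genes passed there (2317 unadjusted), and Adgre1 joined the other 3 markers for null virus against control (adjusted p of 0.0281).

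Between USP28 virus and control 921 genes passed with library totals alone (612 higher, 309 lower), 919 without a filter, 3838 with 2 groups alone and 363 to 4136 with libraries left out. The markers passing were 5 with 2 groups alone and 0 to 3 with libraries left out.

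The sign of small differences turned, and none of these passed. Between null virus and control, with libraries left out, Csf1r ran from -0.280 to 0.0905 and Cd163 from -0.590 to 0.0534, both highest without null virus replicate 1. Between USP28 and null virus, Csf1r was 0.0017 with library totals and ran from -0.242 to 0.123 with libraries left out. C1qa was 0.0706 with library totals, 0.0721 with the length trend removed and -0.123 to 0.102 with libraries left out. Cd163 ran from -0.190 without null virus replicate 1 to 0.448. Between USP28 virus and control, Csf1r ran from -0.326 to 0.0037 and Cd163 from -0.243 to 0.0151, both highest without USP28 virus replicate 1. The cause was not tested. Over the markers, 183, 190 and 187 of 199 alternative values kept their direction and side of the threshold in the 3 comparisons, in the order above. The planned quasi-likelihood count test was not run, since the values are RPKM.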
